A study of Mus musculus with 2 samples.

Results

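The 10 genes described here encode receptors, Smads and Id targets of BMP and endoglin signalling: *Acvrl1*, *Eng*, *Bmpr2*, *Smad1*, *Smad5*, *Smad6*, *Smad7*, *Id1*, *Id2* and *Id3*. They were taken by name and are 10 of the 23154 genes in the count tables. PK44 cells were sorted as CD41-CD43-CD45-CD31+CD201+Kit+CD44+ from the yolk sac of E10.0 mouse embryos on a C57BL/6 background, with no treatment or engineered allele named for them. The study sequenced them to describe the molecular features of this gate in the yolk sac. Its blood-forming capacity was assayed apart from this, in culture and by transplantation. The 87 cells came in 2 libraries of this single condition, 43 cells in replicate 1 and 44 cells in replicate 2, made by modified STRT-seq, in which each cell carries a barcode and each transcript is counted once by a unique molecular identifier (UMI). Replicate 1 held 8932527 counts, with a lowest, median and highest cell of 13218, 141577 and 702028. Replicate 2 held 12706360 counts, with a lowest, median and highest cell of 51620, 238898 and 956593. Whether the libraries came from separate embryos or litters was not given in the sources used here, so that p-values below rest on 2 libraries whose spread may be technical. The libraries shared 0 cell numbers, and their sums differed by more than counting noise (chi-square over degrees of freedom of 101 for 10410 genes). Pools of cells that differ from each other could give such a value in any case, so it does not measure a difference of the libraries.

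Endoglin, the product of *Eng*, is a co-receptor of endothelial cells that presents ligands of the BMP family to the type I receptor ALK1, encoded by *Acvrl1*, in complex with the type II receptor encoded by *Bmpr2*. The activated receptors phosphorylate Smad1 and Smad5, which enter the nucleus with Smad4 and switch on target genes, among them the Id genes and the inhibitory Smads that feed back on the receptors. Id proteins bind E proteins and keep them from DNA. In the embryo this pathway is needed for the growth of vessels, and BMP signalling takes part in the steps by which hemogenic endothelium turns into blood under the transcription factor *Runx1*.

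The bases in front of the start of a gene are among the places where Smads could meet a target. They are shown for the members whose window lies wholly outside the annotated gene. RefSeq windows of 250 bases upstream of the start (GRCm38.p6) were found for 7 of the 10 members. *Acvrl1*, *Smad7* and *Id1* had no entry. Windows of *Eng* (chr2:32646345-32646594, plus strand), *Smad5* (chr13:56702760-56703009, plus strand) and *Smad6* (chr9:64022060-64022309, minus strand) touched 0 bases of their genes in GENCODE M21, and are printed as a receptor, a signalling Smad and an inhibitory Smad. Both strands were searched for GGCGCC (bound by BMP Smads), GTCT (the Smad box), GTCTAGAC (the Smad box on both strands), TGTGGT (Runx), the E-boxes CACGTG and CAGGTG, and TATAAA. Capitals mark matches, read 5′ to 3′ on the strand of the gene, where AGAC is GTCT on the other strand.
Eng: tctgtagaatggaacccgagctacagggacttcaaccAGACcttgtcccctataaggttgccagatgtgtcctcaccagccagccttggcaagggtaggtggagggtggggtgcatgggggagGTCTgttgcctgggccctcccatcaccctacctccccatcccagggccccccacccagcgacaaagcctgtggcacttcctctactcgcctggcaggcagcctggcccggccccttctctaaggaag
Smad5: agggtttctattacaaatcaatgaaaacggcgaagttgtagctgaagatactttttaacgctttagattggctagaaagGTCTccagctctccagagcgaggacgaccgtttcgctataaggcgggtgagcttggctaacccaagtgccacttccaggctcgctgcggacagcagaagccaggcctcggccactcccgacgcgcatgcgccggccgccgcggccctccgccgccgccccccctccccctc
Smad6: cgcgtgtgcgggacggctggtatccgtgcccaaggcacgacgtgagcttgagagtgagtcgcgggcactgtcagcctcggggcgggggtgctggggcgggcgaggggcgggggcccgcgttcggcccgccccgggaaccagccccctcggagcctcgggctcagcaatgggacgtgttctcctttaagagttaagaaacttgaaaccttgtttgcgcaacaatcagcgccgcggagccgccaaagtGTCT
GTCT was found in the windows of *Eng*, *Smad5*, *Smad6*, *Id2* and *Id3*, 5 of 7, beside 83.0% of 27025 windows of all genes. The GGCGCC palindrome was found in those of *Bmpr2* and *Id2*, 2 of 7, beside 9.54% of all windows. These windows and that of *Id3* lie wholly inside the annotated gene, and 90 bases of that of *Smad1* do. The other motifs searched had 0 matches in the 7 windows, where TGTGGT occurs in 14.2%, CAGGTG in 17.1%, TATAAA in 13.0%, CACGTG in 6.05% and GTCTAGAC in 0.174% of all windows. A match describes letters only, and the windows were GC-rich, from 60% in *Smad5* to 66.8% in *Smad6*, beside a median of 52% over all windows.

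The cells carried the transcripts that define endothelium. All 8 endothelial markers (*Pecam1*, *Cdh5*, *Kdr*, *Tek*, *Tie1*, *Emcn*, *Esam* and *Cldn5*) had counts in both libraries, with a summed level of 2387 CPM (summed counts of a gene scaled to the library total) in replicate 1 and 4150 CPM in replicate 2. The 6 blood markers summed to 425 and 253 CPM, with *Coro1a* the most abundant at 192 and 148 CPM, and *Cd48* had no count. Of 6 macrophage markers *Adgre1*, *C1qa* and *C1qb* had no count in either library, and the list summed to 69.7 and 31.8 CPM, led by *Lyz2* at 64.1 and 27.5 CPM. Visceral endoderm markers, which a yolk sac sort could carry over, summed to 0 and 16.4 CPM. The 7 mesenchymal markers summed to 898 and 342 CPM, with *Col1a2* (351 CPM) and *Col1a1* (133 CPM) the most abundant in replicate 1 and replicate 2.

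Part of that mesenchymal signal sat in 3 cells, 2 of replicate 1 and 1 of replicate 2, each with at least 100 counts of *Col1a1*, *Col1a2*, *Col3a1* and *Lum*. They held 2.75% of all counts. Their share of the counts of a member ran from 0.103% for *Smad6* to 2.57% for *Bmpr2*, and without them no member's mean level moved by more than its SD over the libraries. All 3 fell among the cells low in *Runx1*, and numbers of genes called and some values against *Runx1* are given without them as well. The libraries also stood apart from each other in depth and in many genes, and the level of each member is given per library. Levels of other genes of the pathway are mostly given as a mean with its SD over the libraries.

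*Eng* was the receptor with the highest level. It lies at chr2:32646595-32682669 on the plus strand of GRCm38 and had 233 and 304 CPM in replicate 1 and replicate 2, which averages 269 ± 50.03 CPM (SD, n = 2 libraries). Of 87 cells 86 had a count. Cells of replicate 1 had a lowest, median and highest *Eng* level of 0, 95.6 and 1960 CPM, and those of replicate 2 of 3.93, 234 and 1431 CPM. The transcript of the endoglin co-receptor was thus present in nearly every cell, at levels that spread widely from cell to cell. Because each transcript is counted once at its 3′ end, counts were not divided by length, and CPM values of different genes are compared as transcript shares.

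*Acvrl1*, the ALK1 receptor gene (chr15:101128522-101145336, plus strand), had 45.5 CPM (95% Poisson interval 41.1 to 50.1) in replicate 1 and 132 CPM (126 to 138) in replicate 2, a ratio of 2.90 between the libraries. These intervals, like all intervals of levels and ratios below, cover counting error only. Exact intervals for shares of cells treat the cells of a library as independent draws. A count was found in 23 of 43 cells (53.5%, exact Clopper-Pearson interval 37.7% to 68.8%) of replicate 1 and in 42 of 44 cells (95.5%, 84.5% to 99.4%) of replicate 2, and after each cell was thinned to 20000 counts in 21.4% and 77.3% of cells. Replicate 1 was therefore the poorer in *Acvrl1* by level and by share of cells, at equal depth too, and its 3 highest cells held 53.0% of the counts. *Bmpr2*, the type II receptor gene (chr1:59763400-59879014, plus strand), went the other way, with 164 and 86.6 CPM in replicate 1 and replicate 2. Cells with a count nevertheless made up 58.1% of replicate 1 and 95.5% of replicate 2, or 45.2% and 63.6% after thinning. The counts of replicate 1 were held by fewer cells, with a median cell of 4.35 CPM against 81.6 CPM.

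Counts of *Acvrl1*, *Eng* and *Bmpr2* together, the parts of an endoglin-ALK1 receptor complex, were found in 17 of 43 cells (39.5%, exact interval 25.0% to 55.6%) of replicate 1 and in 40 of 44 cells (90.9%, 78.3% to 97.5%) of replicate 2. With at least 10 counts of each, the numbers were 5 and 19 cells. Among counts of the type I BMP receptor genes, *Acvrl1* made up 64.6% in replicate 1 and 83.3% in replicate 2, *Acvr1* 31.2% and 12.3%, and *Bmpr1a* 4.14% and 4.37%, whereas *Bmpr1b* had no count. *Acvrl1* was the most counted type I BMP receptor gene of both libraries as a whole, though not in the cells of replicate 1 above its median of *Runx1*, where it made up 38.9% and *Acvr1* 49.0%. *Bmpr2* made up 79.6% and 78.5% of the counts of the type II genes *Bmpr2*, *Acvr2a* and *Acvr2b*.

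The 4 Smads had the lowest mean CPM of the 10 genes, though in replicate 1 *Acvrl1* (45.5 CPM) lay below *Smad1* and *Smad7*. *Smad1* (chr8:79338395-79399518, minus strand) had 55.9 and 50.9 CPM in replicate 1 and replicate 2, and *Smad5* (chr13:56703010-56742377, plus strand) had 39.0 and 41.6 CPM. *Smad1* was thus the higher of these receptor-activated Smads of the BMP branch in both libraries, and *Smad9*, the third of that branch, had no count, below a floor of 3 counts that is 0.336 and 0.236 CPM in replicate 1 and replicate 2. *Smad6* (chr9:63953076-64022059, minus strand), which blocks BMP receptors and Smad1, had 38.1 and 49.7 CPM. *Smad7*, which blocks receptors of the BMP and TGF-beta branches, had 57.4 and 46.1 CPM. Counts of these 4 genes were found in 43 to 56 of 87 cells, from *Smad6* to *Smad1*, and in each of them the 3 highest cells of replicate 1 held 47.6% to 63.5% of the counts.

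The Id genes, targets of the pathway, were abundant. *Id3* (chr4:136143497-136145755, plus strand) had 284 and 708 CPM in replicate 1 and replicate 2, and 84 of 87 cells had a count. *Id1* (chr2:152736251-152737410, plus strand) had 271 and 451 CPM and a count in 80 cells, and *Id2* (chr12:25093799-25097140, minus strand) had 94.2 and 240.1 CPM and a count in 72 cells. All 3 were higher in replicate 2. Of all counts of these Id genes, *Id3* made up 43.7% in replicate 1 and 50.6% in replicate 2, *Id1* 41.8% and 32.2%, and *Id2* 14.5% and 17.2%. *Id3* had the most counts of the 3 in 18 of the 35 cells of replicate 1 with at least 10 Id counts and in 26 of 44 such cells of replicate 2, *Id1* in 12 and 13, and *Id2* in 5 and 5.

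**Figure D1:**
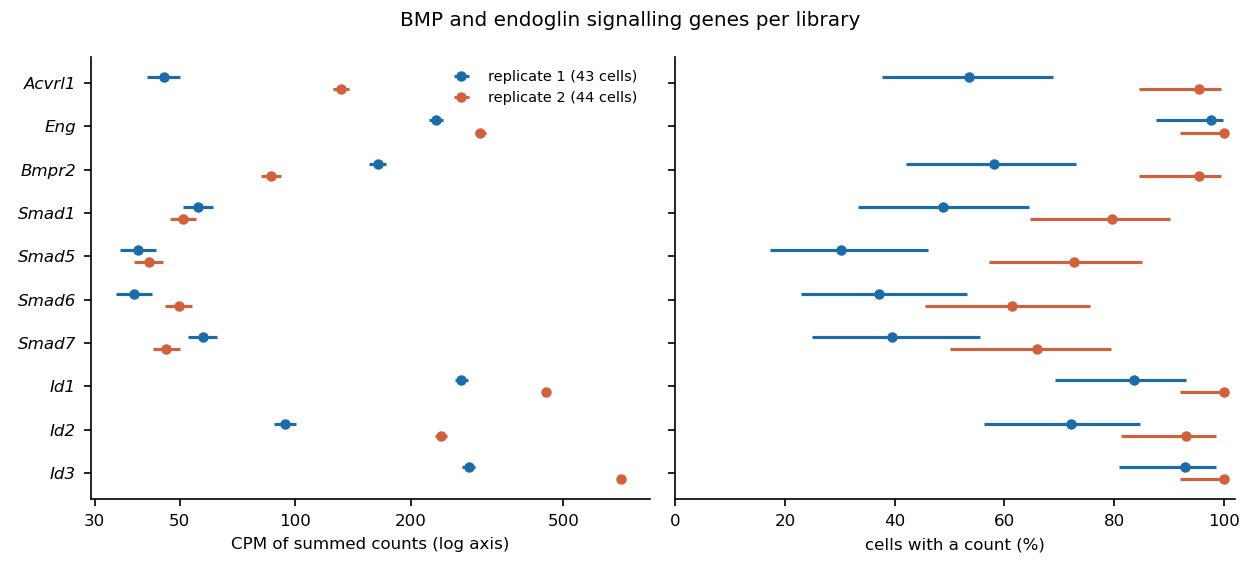
Left, CPM of the summed counts of each gene (log axis) with 95% Poisson intervals. Right, percent of cells with a count with exact 95% intervals, both for replicate 1 (43 cells, blue) and replicate 2 (44 cells, orange). *Eng*, *Id1* and *Id3* lie at 233 CPM or above in both libraries, and the 4 Smads between 38.1 and 57.4 CPM.

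By mean CPM over the libraries the order was *Id3* (496 ± 300, SD, n = 2 libraries), *Id1* (361 ± 127), *Eng* (269 ± 50.03), *Id2* (167 ± 103), *Bmpr2* (125 ± 54.8), *Acvrl1* (88.7 ± 61.1), *Smad1* (53.4 ± 3.50), *Smad7* (51.8 ± 8.00), *Smad6* (43.9 ± 8.20) and *Smad5* (40.3 ± 1.84). Each of the 9 pairs of neighbours in this order differed by less than the larger SD of the pair. Across the order the gaps were wider than the spread: *Eng*, *Id1* and *Id3* exceeded each Smad in each library. Replicate 2 was at least 2-fold above replicate 1 for 3 of 10 members (*Acvrl1*, *Id2* and *Id3*), beside 21.3% of the 10848 genes with at least 50 counts in a library, and at least 2-fold below it for 0 of 10, beside 15.2%. The median ratio was 1.30 for the members and 1.04 for these genes. The libraries are replicates of a single condition, and no gene was tested between them.

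To describe the genes against *Runx1*, the cells of each library were divided at its median *Runx1* CPM, which was 52.2 in replicate 1 and 10.03 in replicate 2. *Runx1* itself had 457 CPM in the 21 Runx1-high and 15.8 CPM in the 22 Runx1-low cells of replicate 1, and 226 and 2.94 CPM in the 22 and 22 cells of replicate 2, as the division requires. The classes are ranges of 1 measure and not cell types. The cells nearest the line had 52.7 and 52.2 CPM in replicate 1 and 11.2 and 8.85 CPM in replicate 2. Depth moved with the division. Runx1-high cells had a median of 260240 counts against 95376 in replicate 1, and 271734 against 213444 in replicate 2.

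*Acvrl1* was the member furthest apart between the classes. It had 10.1 CPM in Runx1-high and 110 CPM in Runx1-low cells of replicate 1, and 61.8 and 236 CPM in replicate 2. Both libraries were lower on the Runx1-high side, by 10.9-fold and 3.82-fold in the ratio of sums. In replicate 1 the class medians over cells were close, at 1.95 and 2.17 CPM, and the gap came from the upper cells, since 1 Runx1-high and 7 Runx1-low cells had at least 10 counts and the highest cells had 59.5 and 992 CPM. In replicate 2 the medians were 33.99 and 193 CPM, with ranges that overlapped. On the 4 sums the log2 fold change was -2.29 ± 0.82 (SE), which did not pass the quasi-likelihood test of edgeR (unadjusted p = 0.0205, Benjamini-Hochberg adjusted p = 0.806). The 2 sums of a library share that library, and with the library as a replicate block edgeR gave *Acvrl1* -2.70 ± 0.59 with a Benjamini-Hochberg adjusted p of 0.00103. The blocked fit has 1 residual degree of freedom and edgeR estimated its prior degrees of freedom as infinite, so that each gene was tested with a spread shared across genes and not with its own. Over the 11 fits run, all with a lower level on the Runx1-high side, edgeR and DESeq2 gave it adjusted p-values from 0.00103 to 0.822, and 3 of the fits called it (with the block, without the filter on low counts, and with the block and without mesenchymal cells), each with infinite prior degrees of freedom, which no other edgeR fit had.

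For the whole table, edgeR without a block called 0 of the 10 members and 1 of 10629 genes (0.00941%), the collagen gene *Col1a1*. At an unadjusted p under 0.05 there was 1 member, *Acvrl1*, beside 588 genes (5.53%). DESeq2 without a block called 0 members and 128 genes (1.2%), and edgeR with the replicate block called 1 member, *Acvrl1*, and 166 genes (1.56%), of which 40 were higher and 126 lower in Runx1-high cells. Without the 3 mesenchymal cells edgeR called 0 genes without the block, 555 of 10496 having an unadjusted p under 0.05. With the block, in a fit chosen after the data had been seen, it called 147 genes (1.4%), *Acvrl1* among them at a log2 fold change of -2.77 and a Benjamini-Hochberg adjusted p of 0.00172. With the block and each cell thinned to 20000 counts, likewise chosen later, edgeR gave *Acvrl1* a log2 fold change of -3.07 and a Benjamini-Hochberg adjusted p of 0.1002, which is not a call, and called 15 of 6788 genes (0.221%). Thinned cells were also divided anew by *Runx1*, into 19 Runx1-high and 23 Runx1-low cells of replicate 1 and 17 and 27 of replicate 2. The blocked fit of thinned cells had 13.1 prior degrees of freedom, where that of all counts had infinite ones. The part of depth, of the division and of the prior in the lost call was not tested.

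*Eng* had 198 CPM in Runx1-high and 297 CPM in Runx1-low cells of replicate 1, and 227 and 419 CPM in replicate 2. The classes overlapped from cell to cell, and the sums were lower on the Runx1-high side in both libraries, with a log2 fold change of -0.78 ± 0.40 (SE) and an adjusted p of 0.920 by edgeR with Benjamini-Hochberg adjustment. The smallest adjusted p of *Eng* in the 11 fits was 0.222, and without the mesenchymal cells its log2 fold change was -1.03. *Bmpr2* had 162 and 168 CPM in replicate 1, a gap within counting error at a ratio of 0.964 (95% interval 0.866 to 1.07), and 60.0 and 126 CPM in replicate 2. In replicate 1 the median Runx1-high cell had 47.6 CPM and the median Runx1-low cell 0, with a count in 15 of 21 and 10 of 22 cells, so that cells and sums there pointed different ways. Only in replicate 2 was the sum lower by more than counting error.

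Endothelial markers moved with this division. All 8 were lower in Runx1-high cells of both libraries, with summed levels of 1662 against 3704 CPM in replicate 1 and 3090 against 5730 CPM in replicate 2. *Kdr* was the most abundant of them in the Runx1-low cells of replicate 1 at 801 CPM, *Cldn5* in those of replicate 2 at 1467 CPM. None of the 8 was called by edgeR without the block or by DESeq2, 4 had an unadjusted p under 0.05 in edgeR, and with the block edgeR called 4, namely *Cdh5*, *Cldn5*, *Kdr* and *Tek*. Blood markers stood higher on the Runx1-high side, at 485 against 316 CPM and 376 against 68.8 CPM in sum, with *Coro1a* their most abundant gene there (264 and 243 CPM), although *Itga2b* went the other way in both libraries (13.03 against 159 CPM and 30.8 against 48.2 CPM). edgeR without the block called neither, and *Coro1a* was called higher by edgeR with the block and by DESeq2 (Benjamini-Hochberg adjusted p = 4.10e-07 and 0.0364). Mesenchymal markers summed to 66.3 against 2408 CPM and 23.5 against 817 CPM. Without the 3 mesenchymal cells, and with the other cells divided anew, the blocked log2 fold change of *Col1a1* went from -5.62 to 0.95, that of *Col3a1* from -5.42 to 0.30 and that of *Col1a2* from -5.27 to -0.75. The part of these lists and of depth in the values of the 10 genes was not tested.

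Set against the endothelial list, the receptors parted from each other. Per 1000 counts of the 8 endothelial markers, *Acvrl1* had 6.06 counts in Runx1-high and 29.6 in Runx1-low cells of replicate 1, and 20.0 and 41.2 in replicate 2. It was thus lower on the Runx1-high side on this scale too, in both libraries. *Eng* had 119 and 80.1 counts per 1000 in replicate 1, and 73.5 and 73.0 in replicate 2. On this scale *Eng* was higher in Runx1-high cells of replicate 1 and about equal in replicate 2, the reverse of its order by CPM in replicate 1. *Bmpr2* had 97.5 and 45.4 counts per 1000 in replicate 1, and 19.4 and 22.02 in replicate 2. These ratios are descriptions of 4 sums without a test. Their divisor was itself lower in Runx1-high cells, at 1662 against 3704 CPM in replicate 1 and 3090 against 5730 CPM in replicate 2. A gene of equal CPM in both classes thus stands higher in Runx1-high cells on this scale. The higher values of *Eng* and *Bmpr2* there in replicate 1 are therefore no separate result about these genes.

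**Figure D2:**
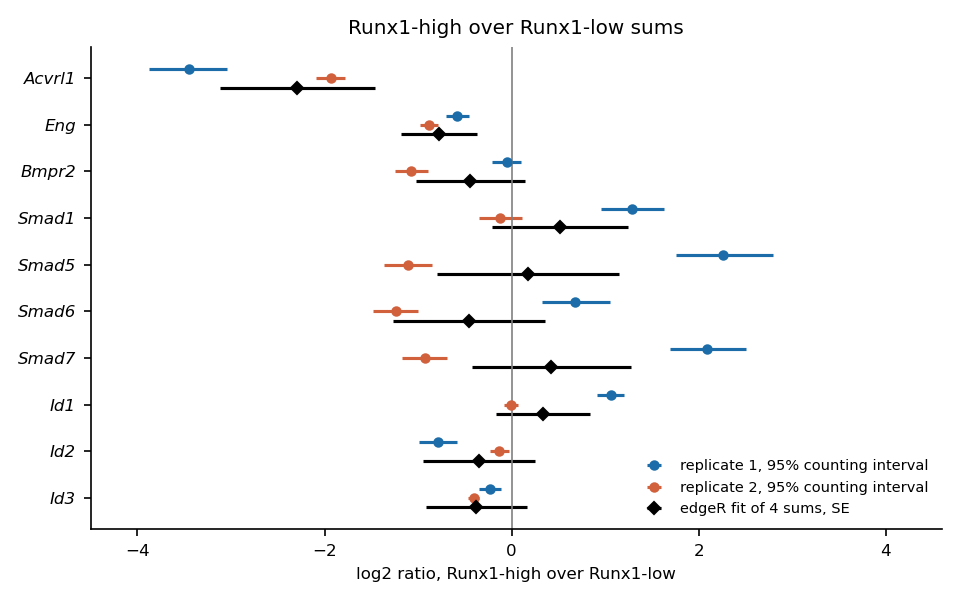
Log2 ratio of Runx1-high over Runx1-low CPM of the summed counts for each gene (x axis). Circles are replicate 1 (blue) and replicate 2 (orange) with 95% counting intervals, and diamonds are the edgeR fit of the 4 sums with its SE. *Acvrl1* and *Eng* lie left of 0 in both libraries, and *Smad5*, *Smad6* and *Smad7* lie right of 0 in replicate 1 and left of 0 in replicate 2.

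In summed counts most of the Smads went opposite ways in the libraries, as did 43.5% of all genes tested. *Smad5* had 54.2 CPM in Runx1-high and 11.3 CPM in Runx1-low cells of replicate 1, and 28.4 and 61.1 CPM in replicate 2. Its ratio of 4.77 (95% interval 3.37 to 6.94) in replicate 1 stood against 0.465 (0.389 to 0.554) in replicate 2. *Smad1* had 70.7 and 29.0 CPM in replicate 1 and 49.2 and 53.5 CPM in replicate 2, there a ratio of 0.920 (0.785 to 1.08) within counting error. The signalling Smads were thus higher on the Runx1-high side in replicate 1 and not in replicate 2. The inhibitory *Smad7* had 78.8 and 18.6 CPM in Runx1-high and Runx1-low cells of replicate 1 and 33.8 and 64.5 CPM in replicate 2. *Smad6* had 43.9 and 27.4 CPM in replicate 1 and 32.1 and 75.8 CPM in replicate 2, so that the inhibitory Smads turned in the same way. Few cells carried these sums, with at least 10 counts of *Smad5* in 6 Runx1-high and 1 Runx1-low cells of replicate 1 and in 6 and 9 cells of replicate 2. The log2 fold changes in edgeR ran from -0.46 (*Smad6*) to 0.52 (*Smad1*), with SEs of 0.72 to 0.97, and whether the libraries differed was not tested, as 1 sum of each class in a library leaves no spread to test against.

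Among the Id genes, *Id1* had 333 CPM in Runx1-high and 160 CPM in Runx1-low cells of replicate 1, and 450.5 and 452 CPM in replicate 2. By counting error alone the sums differed in replicate 1 (ratio 2.08, 95% interval 1.89 to 2.30) and not in replicate 2 (0.997, 0.945 to 1.05). These intervals leave out the spread between cells. *Id3* had 267 and 313 CPM in replicate 1 and 626 and 830.3 CPM in replicate 2, and *Id2* had 74.8 and 129 CPM and 231 and 253 CPM. Both were lower in CPM on the Runx1-high side of each library. Per 1000 endothelial counts the order of *Id3* was the reverse, with 161 in Runx1-high and 84.6 in Runx1-low cells of replicate 1 and 203 and 145 in replicate 2, and *Id1* was higher on the Runx1-high side of both libraries, with 200.3 and 43.1, and 146 and 78.9. *Id2* turned too on this scale. It had 431 and 410 counts beside 9571 and 11753 endothelial counts in replicate 1, and 1758 and 1293 beside 23494 and 29241 in replicate 2. As the endothelial CPM was lower in Runx1-high cells, these changes of order follow from the divisor and are no separate result about the Id genes. The Id counts of Runx1-high cells of replicate 1 were led by *Id1* (49.3%, against 26.5% in Runx1-low cells), while in replicate 2 *Id3* led in both classes (47.9% and 54.1%). By edgeR the log2 fold changes were 0.34 ± 0.50 (SE) for *Id1*, -0.35 ± 0.60 for *Id2* and -0.38 ± 0.54 for *Id3*, none beyond its error.

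**Figure D3:**
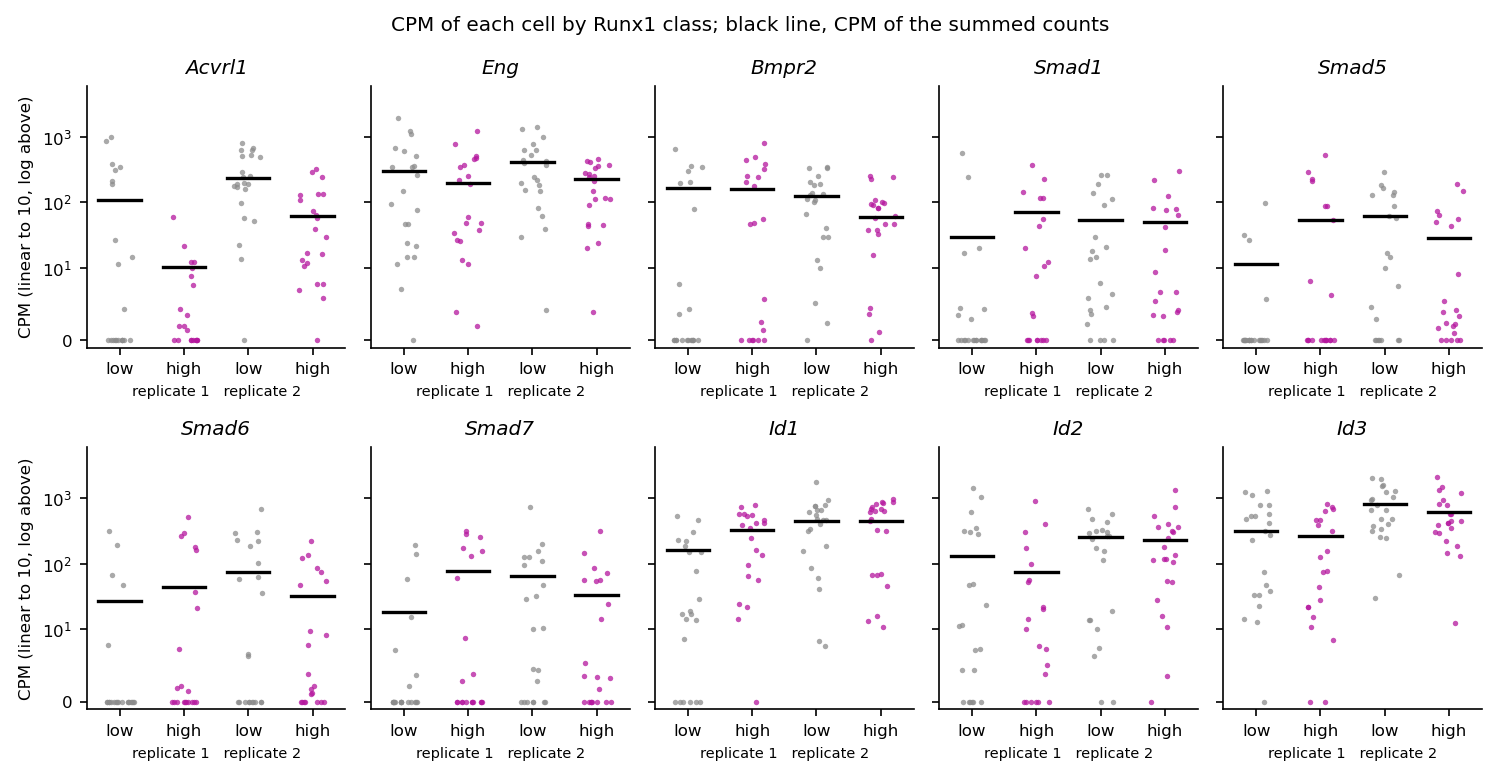
CPM of each cell (y axis, linear to 10 and log above) in Runx1-low (grey) and Runx1-high (purple) cells of replicate 1 and replicate 2, 1 panel per gene. Black lines are the CPM of the summed counts, and the *Acvrl1* line lies lower in the Runx1-high cells of both libraries (10.1 against 110 CPM and 61.8 against 236 CPM).

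Counted over the 10 members, 5 (*Acvrl1*, *Eng*, *Bmpr2*, *Id2* and *Id3*) had a lower CPM in Runx1-high cells of both libraries, beside 25.5% of the 10629 genes tested, *Bmpr2* within counting error in replicate 1, and 0 were higher in both, beside 3294 genes. Replicate 2 had 10 of 10 members lower beside 48.5% of genes (*Smad1* and *Id1* within counting error), and replicate 1 had 5 of 10 beside 46%. The other 5 (*Smad1*, *Smad5*, *Smad6*, *Smad7* and *Id1*) had opposite directions, beside 43.5% of genes. The median log2 fold change was -0.36 over the members and -0.01 over all genes tested. All 10 passed the filter on low counts.

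When the cells of each library were put into 3 tiers by *Runx1*, *Acvrl1* had 136, 23.4 and 13.6 CPM in the lowest, middle and highest tier of replicate 1 (14, 15 and 14 cells) and 196, 173 and 65.7 CPM in replicate 2 (14, 16 and 14 cells). *Eng* had 389, 266 and 123 CPM in replicate 1 and 378, 356 and 225 CPM in replicate 2. Summed counts of both these receptors thus stepped down from tier to tier in each library, and cell medians did not, with 20.6, 0 and 1.96 CPM and 176, 193 and 16.5 CPM for *Acvrl1*, and 342, 47.0 and 48.2 CPM and 234, 265 and 112 CPM for *Eng*. *Bmpr2* stepped down in replicate 2 alone, with 200, 133 and 169 CPM in replicate 1 and 114, 98.2 and 62.0 CPM in replicate 2. *Id1* had 184, 224 and 357 CPM in replicate 1, and 356, 545 and 454 CPM in replicate 2, where the middle tier was highest. *Id3* had 371, 219 and 288 CPM in replicate 1 and 879.9, 686 and 613 CPM in replicate 2.

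Across cells, Spearman's rho of *Acvrl1* with *Runx1* (CPM) was -0.21 over the 43 cells of replicate 1 and -0.50 over the 44 cells of replicate 2, and -0.45 and -0.52 after thinning to 20000 counts. These points share a library and differ in depth, with which *Runx1* itself had a rho of 0.34 and 0.35 and *Acvrl1* of 0.18 and -0.47. *Eng* had -0.27 and -0.22, and *Id3* -0.31 and -0.20, so that these 3 genes leaned the same way in both libraries. For comparison the endothelial genes *Cdh5* and *Kdr* had -0.35 and -0.47, and -0.39 and -0.50, and *Pecam1* had -0.04 and -0.25. *Id1* had 0.39 in replicate 1 and 0.10 in replicate 2, or -0.04 in replicate 2 after thinning. The other 6 members lay between -0.17 and 0.29 in both libraries, among them *Id2* with -0.17 and -0.03, or -0.24 and -0.20 after thinning, and without the 3 mesenchymal cells *Acvrl1* kept -0.20 and -0.51. Of the Smads, *Smad1* had 0.20 and 0.02, *Smad5* 0.29 and 0.10, *Smad6* 0.26 and 0.0047, and *Smad7* 0.15 and -0.01. In sparse counts such weak values are descriptions of these cells.

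**Figure D4:**
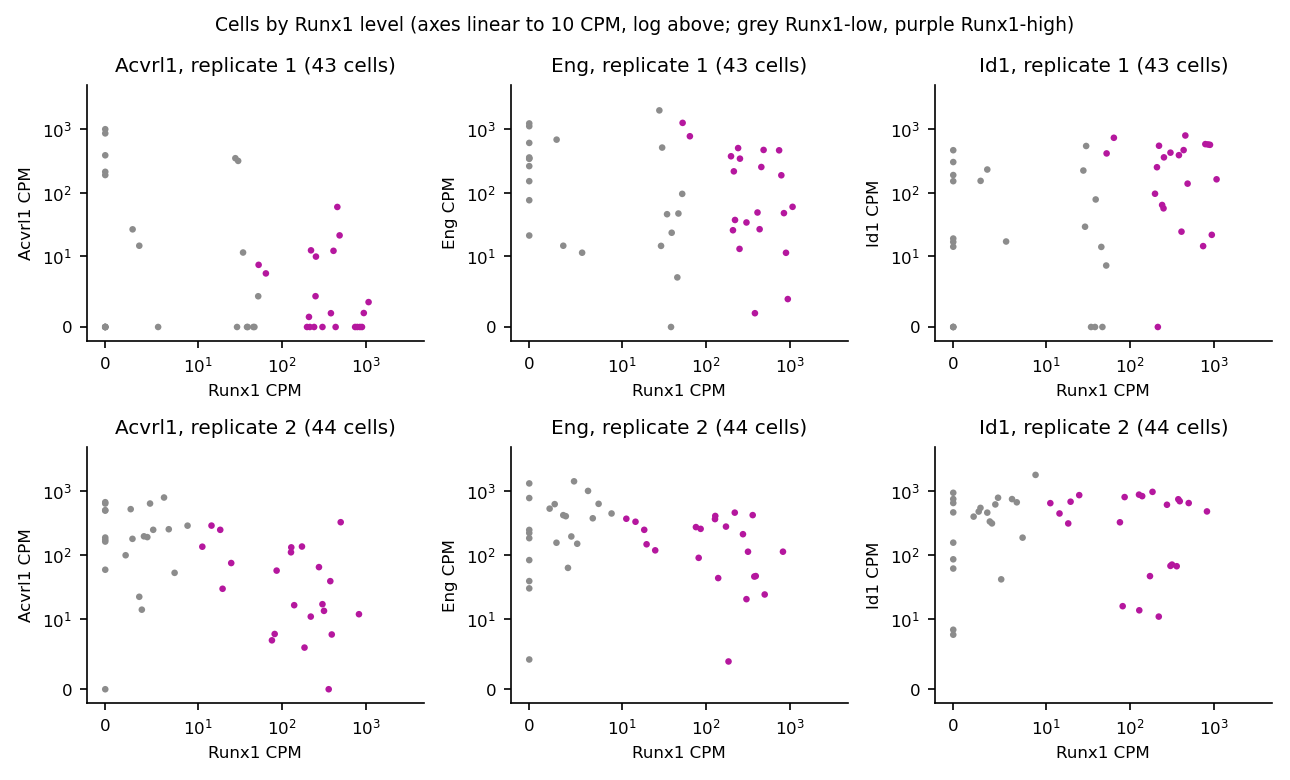
*Acvrl1*, *Eng* and *Id1* CPM (y axes) against *Runx1* CPM (x axes) in each cell of replicate 1 (top, 43 cells) and replicate 2 (bottom, 44 cells), axes linear to 10 CPM and log above. Grey cells are Runx1-low and purple cells Runx1-high. The rho of *Acvrl1* is -0.21 and -0.50, and that of *Id1* is 0.39 and 0.10.

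Among themselves the members were loosely related. Of 45 pairs, 24 had a positive rho in both libraries and 4 a negative rho in both, and the median rho was 0.113 and 0.0609 in replicate 1 and replicate 2, where pairs of all 3661 genes with a count in at least 50% of the cells of each library had medians of 0.0774 and 0.0285. The 4 Smads fall short of that share, so that these sets of pairs are unlike. The pair with the highest mean was *Acvrl1* and *Eng* (0.51 and 0.34), followed by *Acvrl1* and *Bmpr2* (0.31 and 0.43). *Id1* and *Id3* had 0.20 and 0.42, and *Eng* with *Bmpr2* had 0.25 and 0.27. With thinned cells 19 pairs were positive in both libraries, *Acvrl1* and *Eng* kept 0.59 and 0.31, and *Acvrl1* and *Bmpr2* had 0.16 and 0.26. The inhibitory pair *Smad6* and *Smad7* had 0.11 and 0.35, and the lowest mean was that of *Smad5* and *Id3* (-0.17 and -0.24).

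**Figure D5:**
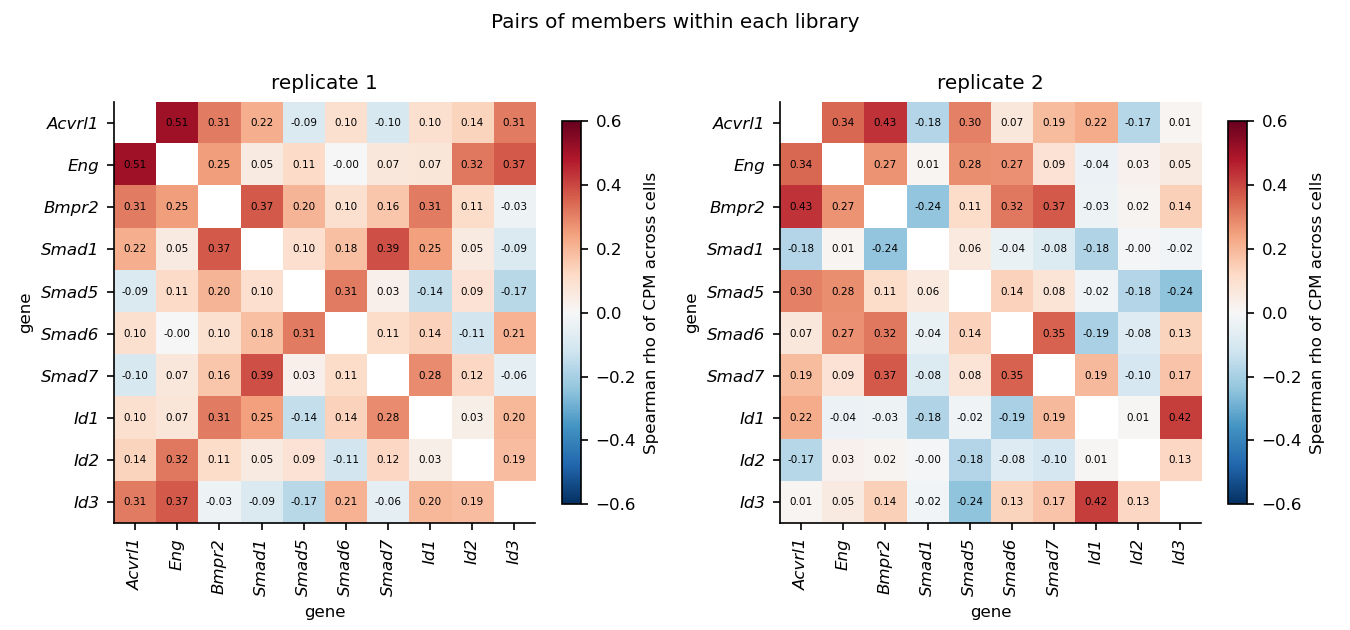
Spearman's rho of CPM across cells for each pair of the 10 genes (rows and columns), replicate 1 on the left (43 cells) and replicate 2 on the right (44 cells). Red is positive and blue negative, and the receptor pair *Acvrl1* and *Eng* has 0.51 and 0.34.

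For the 6 members with a count in at least 50% of the cells of each library, the 3 genes most like each by mean rho were taken from 3655 others with such a share. *Acvrl1* was most like *Nid1* (0.48 and 0.55), *Bnip2* (0.51 and 0.38) and *Sparc* (0.41 and 0.47). *Eng* was most like the angiopoietin receptor gene *Tek* (0.41 and 0.41), *Hspg2* (0.40 and 0.42) and *Tmem2* (0.44 and 0.37). These 3 were near equal, and after thinning *Tek* ranked 23 and *Tmem2* 1. *Bmpr2* was most like *Nhsl2* (0.49 and 0.54), *Aqp1* and *Slc38a2*, and *Id3* was most like *Egfl7* (0.57 and 0.37), *Tmsb4x* and *Cav1*. *Id1* was nearest to *Atf3* (0.55 and 0.32), *Tmem222* and *Igf1*, and *Id2* to *Tmem259* (0.56 and 0.43), *1110038F14Rik* and *Stag1*. With cells thinned to 20000 counts, 6 of these 18 genes (*Nid1*, *Tmem2*, *Nhsl2*, *Tmem222*, *Tmem259* and *Tmsb4x*) were still among the 3 most like their member.

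Of 79 other genes of the pathway, 54 had a count in at least 1 cell, beside 13206 of all 23154 genes. Ligand genes were scarce, with no count for 12 of 18, among them *Gdf2* and *Bmp10*, whose products bind ALK1 with high affinity. By mean CPM the most abundant ligand genes were *Tgfb1* (14.5 ± 10.02 CPM, SD, n = 2 libraries, with a count in 30 of 87 cells), *Bmp2* (10.4 ± 7.41 CPM, 7 cells) and *Bmp4* (8.05 ± 1.41 CPM, 14 cells). Neither library had this order. *Bmp2* (15.7 CPM) and *Tgfb3* (13.0 CPM) led in replicate 1, and *Tgfb1* (21.6 CPM) and *Tgfb2* (10.2 CPM) in replicate 2. *Eng*, *Bmpr2* and *Acvrl1* each had a higher mean CPM than any ligand gene of the list. Of 15 other receptors and co-receptors 12 had a count, led by the TGF-beta receptors *Tgfbr2* (167 ± 116 CPM), *Tgfbr1* (78.2 ± 0.0616 CPM) and *Tgfbr3* (74.1 ± 12.4 CPM).

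Of the secreted antagonists 8 of 16 had no count, *Nog*, *Chrd* and *Grem1* included. *Fstl1*, a secreted glycoprotein of the follistatin family, led this list with 371 ± 148 CPM (SD, n = 2 libraries), followed by *Ltbp1* (55.7 ± 18.4 CPM) and *Crim1* (49.2 ± 0.700 CPM). Of 15 other Smads and intracellular regulators 14 had a count, with *Fkbp1a* (974 ± 532 CPM), which binds type I receptors, *Smad4* (112 ± 23.6 CPM), the partner of all activated Smads, and *Ski* (111 ± 8.64 CPM), a repressor of Smads, on top. Other targets were led by the Notch and BMP responsive genes *Hes1* (1144 ± 43.9 CPM) and *Hey1* (107 ± 28.0 CPM) and by *Unc5b* (106 ± 27.5 CPM), with a count for 11 of 12. These ranks go by mean CPM and did not all hold in each library. *Crim1* stood above *Ltbp1*, and *Tal1* (95.7 CPM) above *Hey1* and *Unc5b*, in replicate 1. *Ctdsp2* (173 CPM) stood above *Smad4* and *Ski* in replicate 2. The E protein genes *Tcf4* (224 ± 27.4 CPM), *Tcf12* (115 ± 4.52 CPM) and *Tcf3* (84.7 ± 12.04 CPM), whose products Id proteins bind, all had counts in most cells.

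Against *Runx1*, 46 of these 79 genes passed the filter on low counts and edgeR without a block called 0, with 5 at an unadjusted p under 0.05 (*Fstl1*, *Hey1*, *Ltbp1*, *Tgfbr3* and *Unc5b*), all lower in Runx1-high cells, beside 588 of all genes (5.53%), 382 of them lower. With the replicate block edgeR called 2, *Fstl1* and *Hey1*, beside 1.56% of all genes, and DESeq2 called 1, *Fstl1*, beside 1.2%. *Fstl1* had 178 CPM in Runx1-high and 428 CPM in Runx1-low cells of replicate 1 and 219 and 858 CPM in replicate 2, a log2 fold change of -1.65 ± 0.34 (SE) with the block (edgeR, Benjamini-Hochberg adjusted p = 0.000317). The 2 mesenchymal cells of replicate 1 held 8.73% of its counts there, and without the 3 such cells the blocked value was -1.67 (edgeR, Benjamini-Hochberg adjusted p = 0.000874). *Hey1* had 43.6 and 166 CPM in replicate 1 and 71.2 and 209 CPM in replicate 2, a log2 fold change of -1.77 ± 0.51 with the block (edgeR, Benjamini-Hochberg adjusted p = 0.0371). Sums of both genes were lower in the Runx1-high cells of each library, as those of *Acvrl1* were. In replicate 1 the median cell did not follow, at 129 CPM in Runx1-high and 71.6 CPM in Runx1-low cells for *Fstl1* and 0 in both for *Hey1*. In replicate 2 the medians were 204 and 658 CPM for *Fstl1*, but close for *Hey1*, at 24.7 and 28.2 CPM. At least 10 counts of *Hey1* were found there in 11 Runx1-high and 10 Runx1-low cells. In replicate 1 its 3 highest cells held 73.4% of its counts. The median log2 fold change without the block was -0.54 over the 46 genes, with 37 of them below 0, beside -0.01 and 50.3% over all genes tested. Replicate 2 carried this, with 37 of 46 genes lower (80.4%, beside 48.5%), while replicate 1 had 22 of 46 (47.8%, beside 46%).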

How the data were processed

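The 2 libraries hold PK44 cells of the yolk sac at E10.0, and the deposited values are UMI counts per gene and cell, without normalization. The authors split reads by cell barcode, trimmed them, aligned them to mm10 with HISAT2 2.1.0, counted them with HTSeq and collapsed duplicates by UMI. The study's methods remove cells of low quality, though 1 deposited cell of replicate 1 had no more than 2000 genes; without it no member's level moved by more than its SD. None of the 87 cells was left out, and doublets were not called, as the cells of this well-based method were few. Tables of cell barcodes were left unused.

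From the counts, CPM of summed counts were computed per library, with exact 95% Poisson intervals and Clopper-Pearson intervals for shares of cells. Cells were divided at the median *Runx1* CPM of their library, counts were summed per library and class into 4 sums, and all genes but *Runx1* were tested with edgeR 4.0.16 in R 4.3.3 (filterByExpr, TMM, quasi-likelihood test without a block, Benjamini-Hochberg adjustment, threshold 0.05). The Wilcoxon test over cells that the study's methods name has no block either. The fit was checked on simulated counts, drawn without a library effect and with the same dispersion for all genes. That check does not measure the error rates of the fit in these data. Alternatives were the library as a replicate block, DESeq2 1.42.0, DESeq2-type size factors in edgeR, no filter on low counts, other divisions of *Runx1*, cells thinned to 20000 counts (1 cell was shallower), cells of mesenchymal signature left out and each library left out. Both sums with a replicate number are of the same library, and the number therefore pairs them: in replicate 1 their deviations from the class means had a correlation of 0.197 over 10629 genes, and genes are not independent replicates.

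Named genes were the 10 members, *Runx1*, the pathway lists by count with the 3 most abundant genes of each and those called, and the 3 genes most like each widely detected member. The members and lists were chosen with earlier results of these data known. Symbols were matched to GENCODE M21 (22124 of 23154, 95.6%), promoter windows to RefSeq. Python 3.11.15 (scipy 1.17.1, pandas 2.3.3, numpy 2.4.6, matplotlib 3.10.9) was used for descriptions and plots.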

Additional observations from a re-analysis of the deposited data

How the results depend on the processing

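The number of genes called between Runx1-high and Runx1-low cells depended on the fit. In place of 1, it was 166 with the replicate block, 128 with DESeq2, 67 without a filter on low counts, and 0 with *Runx1* detected against not detected, with the 14 highest against the 14 lowest cells of each library, or without mesenchymal cells, where 801, 632 and 555 genes had an unadjusted p under 0.05 in edgeR. In fits chosen after seeing the data, the block called 147 genes without mesenchymal cells and 15 with thinned cells. In both settings the cells were also divided anew by *Runx1*, and with thinned cells fewer genes were tested (6788). The number of members called went from 0 to 1 (*Acvrl1*) with the block, without the filter, and with the block and without mesenchymal cells. The block changed the call of no other member. All 3 of these fits had infinite prior degrees of freedom in edgeR. The number of members lower in Runx1-high cells of both libraries was 3 with *Runx1* detected against not detected and 4 with thinned cells. The share of all genes was not computed for these settings, so the numbers are no result about the members. With *Runx1* detected against not detected the median log2 fold change of all genes tested was 0.139, against -0.01 in the main fit. With replicate 2 left out 5 members were lower, beside 46% of all genes. With replicate 1 left out 10 were, beside 48.5%.

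*Acvrl1*, *Eng*, *Bmpr2* and *Id2* kept a negative log2 fold change in all 11 fits and, at the main division, in each library. Other members, with no call, changed sign. With *Runx1* detected against not detected the log2 fold change was -0.45 for *Smad1* and 0.0135 for *Id3*. Without mesenchymal cells, where the cells were also divided anew, it was -0.13 for *Smad5*, and -0.0571 with the block as well. With either library left out it ran from -0.12 to 1.25 for *Smad1*, -1.11 to 2.22 for *Smad5*, -1.24 to 0.65 for *Smad6*, -0.94 to 2.05 for *Smad7* and -0.00845 to 1.03 for *Id1*. The cause was not tested. A fit of 1 library has no test. As a mean over cells in place of summed counts, the level moved by more than its SD for *Smad1* (48.3 CPM) and *Smad6* (58.8 CPM) alone. The order by level changed, with *Acvrl1* (133 CPM) above *Bmpr2* (117 CPM), and *Smad6* and *Smad7* (49.9 CPM) above *Smad1*. In replicate 1 *Acvrl1* had 81.3 CPM on this scale, against 45.5 CPM from summed counts. Thinning lowered the share of cells with a count for all 10 members, as it must, and left a count of each Smad in 25.6% to 30.2% of cells. It moved the mean rho with *Runx1* by more than its SD for *Id2* alone (-0.216).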
